A study of Mus musculus with 8 samples.

Results

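The Hox genes were read from the RNA-seq count table of preadipocytes (stromal cells that can form fat cells) as the rows whose symbol is Hoxa, Hoxb, Hoxc or Hoxd followed only by digits. This gave 39 genes of 35976, in 4 clusters, and all were counted below whatever their level. Male mice ate a high fat diet for 6 weeks, and the cells were sorted out of the stromal vascular fraction of their inguinal fat by PDGFRa, without the blood and vessel markers CD45, TER119 and CD31. The 3 WT libraries carry the label Tet3 f/f (floxed Tet3 alleles in the controls too) and the 3 KO libraries the label Pdgfra-Tet3 KO. The labels do not describe the driver of the deletion, the age of the mice or whether each library is a separate animal. The p-values therefore measure the spread over these libraries, which may be technical. Bisulfite sequencing of 1 pool per genotype after 14 weeks of diet was not used here.

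Hox genes encode homeodomain transcription factors that give cells their position along the body axis. Each cluster holds its genes in the order in which they are used along that axis, from the anterior end (low paralog numbers) to the posterior end (high numbers), and genes with the same number in different clusters are paralogs. Fibroblasts and adipose precursors of the adult keep such a code, and fat depots differ in it. TET3 is a dioxygenase that oxidises 5-methylcytosine, which in mammals lies mostly in CpG dinucleotides. The series holds 1 fat depot, so no position was compared with another.

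The RefSeq promoter windows of Hoxc4, Hoxa5 and Hoxa3 are printed because these were the members with an unadjusted p under 0.05 between the genotypes, as given further on. Each window runs from 250 bases before to 50 bases after an annotated start in GRCm38.p6, 5′ to 3′ on the strand of the gene, and capitals mark CpG dinucleotides.
Hoxc4, chr15:103034145-103034444, plus strand: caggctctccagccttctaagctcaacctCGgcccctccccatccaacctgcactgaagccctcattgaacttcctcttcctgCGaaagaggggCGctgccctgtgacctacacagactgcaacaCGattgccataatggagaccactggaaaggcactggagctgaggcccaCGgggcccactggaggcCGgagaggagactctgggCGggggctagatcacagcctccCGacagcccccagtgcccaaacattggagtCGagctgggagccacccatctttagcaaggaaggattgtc
Hoxa5, chr6:52204538-52204837, minus strand: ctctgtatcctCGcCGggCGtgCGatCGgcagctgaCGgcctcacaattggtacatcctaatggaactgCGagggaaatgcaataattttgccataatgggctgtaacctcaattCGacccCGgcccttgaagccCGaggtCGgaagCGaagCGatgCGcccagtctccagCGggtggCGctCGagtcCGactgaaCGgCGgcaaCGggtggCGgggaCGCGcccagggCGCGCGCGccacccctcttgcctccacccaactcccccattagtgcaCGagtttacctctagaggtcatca
Hoxa3, chr6:52213018-52213317, minus strand: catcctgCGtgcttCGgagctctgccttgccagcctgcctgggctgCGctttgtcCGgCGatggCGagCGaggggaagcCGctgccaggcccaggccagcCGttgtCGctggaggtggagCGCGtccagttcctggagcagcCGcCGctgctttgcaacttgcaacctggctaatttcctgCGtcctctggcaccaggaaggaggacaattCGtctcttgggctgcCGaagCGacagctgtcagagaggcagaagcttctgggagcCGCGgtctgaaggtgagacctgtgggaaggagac
The Hoxc4 window holds 9 CpGs, and 45.8% of all 32851 windows of the table hold as many or more. The Hoxa5 window holds 29 (as many or more in 12.9% of windows) and that of Hoxa3 holds 20 (26.5%). The median was 7 over all windows and 14.5 over the 24 windows of the 22 Hox genes that the table lists. The longest run of bases that the Hoxc4 and Hoxa5 windows share was TTGCCATAATGG, of 12 bases, which starts 122 bases before the annotated start of Hoxc4 and 162 before that of Hoxa5. It was looked for after the sequences were seen, and on either strand these were the 2 windows of 32851 that hold it. The run was picked from these 2 windows as the longest that they share, so that count is no test of a shared element. On both strands, a TATA box (TATAAA) was found in 13.6% of all windows, a site of the PBX-HOX type (TGATNNAT) in 8.85% and a direct repeat of the retinoic acid type (GGTCA, any 5 bases, GGTCA) in 0.0761%, and none of the motifs was found in the Hoxc4, Hoxa5 or Hoxa3 window. Over the 24 Hox windows, 4 held the TATA box, 4 the PBX-HOX type and 0 the retinoic acid type. These matches describe letters and no binding was measured.

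The libraries held between 1831218 and 2374978 counts, at which 3 counts are worth 1.27 to 1.65 CPM (counts per 1000000 of the normalised library), the limit that a count of 0 allows for counting error alone. Tet3 had 93, 127 and 104 counts in WT libraries 1 to 3 against 76, 87 and 79 in KO libraries 1 to 3, and did not pass the test (adjusted p = 0.71 by edgeR), so these counts over the whole gene do not show the deletion. All 13 stromal markers had counts, and they summed to at least 61282 CPM in each library. By edgeR 4 of them rose in KO, 3 fell and 6 did not pass, beside 3.59% of all tested genes that passed. Ptprc, Cd3e, Epcam, Msln and Plin1, which define leukocytes, lymphocytes, epithelium, mesothelium and adipocytes, were at 0 in every library, as were all 5 markers of lymphocytes and all 5 of epithelium. Summed markers stayed at or below 0.951 CPM for adipocytes, 9.35 for macrophages and 5.65 for mesothelium in every library. Skeletal muscle markers summed to 22.9 to 104 CPM in WT libraries against 80.6 to 185 in KO. Of 7 tested muscle markers, 0 passed by edgeR or limma-voom, and 0 of the 3 that DESeq2 adjusted. By edgeR 2 of the 7 were under an unadjusted p of 0.05, beside 15.5% of all tested genes. Schwann cell markers summed to 32.6 to 45.6 against 16.0 to 33.7 CPM, endothelial markers to 136 to 153 against 139 to 173 CPM, and erythroid markers to 1.69 to 7.13 against 0 to 151 CPM, the last in KO library 1. Most of the Schwann cell sum was S100b (37.3 ± 5.75 CPM in WT against 24.9 ± 9.04 in KO, SD, n = 3 each). Most of the endothelial sum was Tek (134 ± 9.43 against 153 ± 21.8 CPM). Of the other endothelial markers, Pecam1 stood at 1.31 ± 1.52 against 0.526 ± 0.514 CPM and Kdr at 4.72 ± 6.92 against 4.30 ± 3.96 CPM. Pdgfra, a gene of the sorting gate, was itself lower in KO, at 648 ± 25.8 CPM in WT against 451 ± 38.6 CPM in KO (SD, n = 3 each; edgeR adjusted p = 0.00598, and 0.0544 without WT library 1). In bulk RNA, fewer cells of a type and less RNA per cell cannot be told apart.

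Along the clusters, most Hox reads of these cells came from groups 4 to 10, and the posterior end of every cluster was silent or nearly so. Of the 39 genes, 16 had enough counts to be tested, 13 had some counts and were not tested, and 10 were at 0 in every library. The 9 genes of groups 11 to 13 together had 8 counts over the 6 libraries, 6 of Hoxa11 and 2 of Hoxc11. Hox reads summed to 591 ± 29.2 CPM in WT against 586 ± 57.2 CPM in KO (SD, n = 3 each), with ranges that overlapped.

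**Figure D1:**
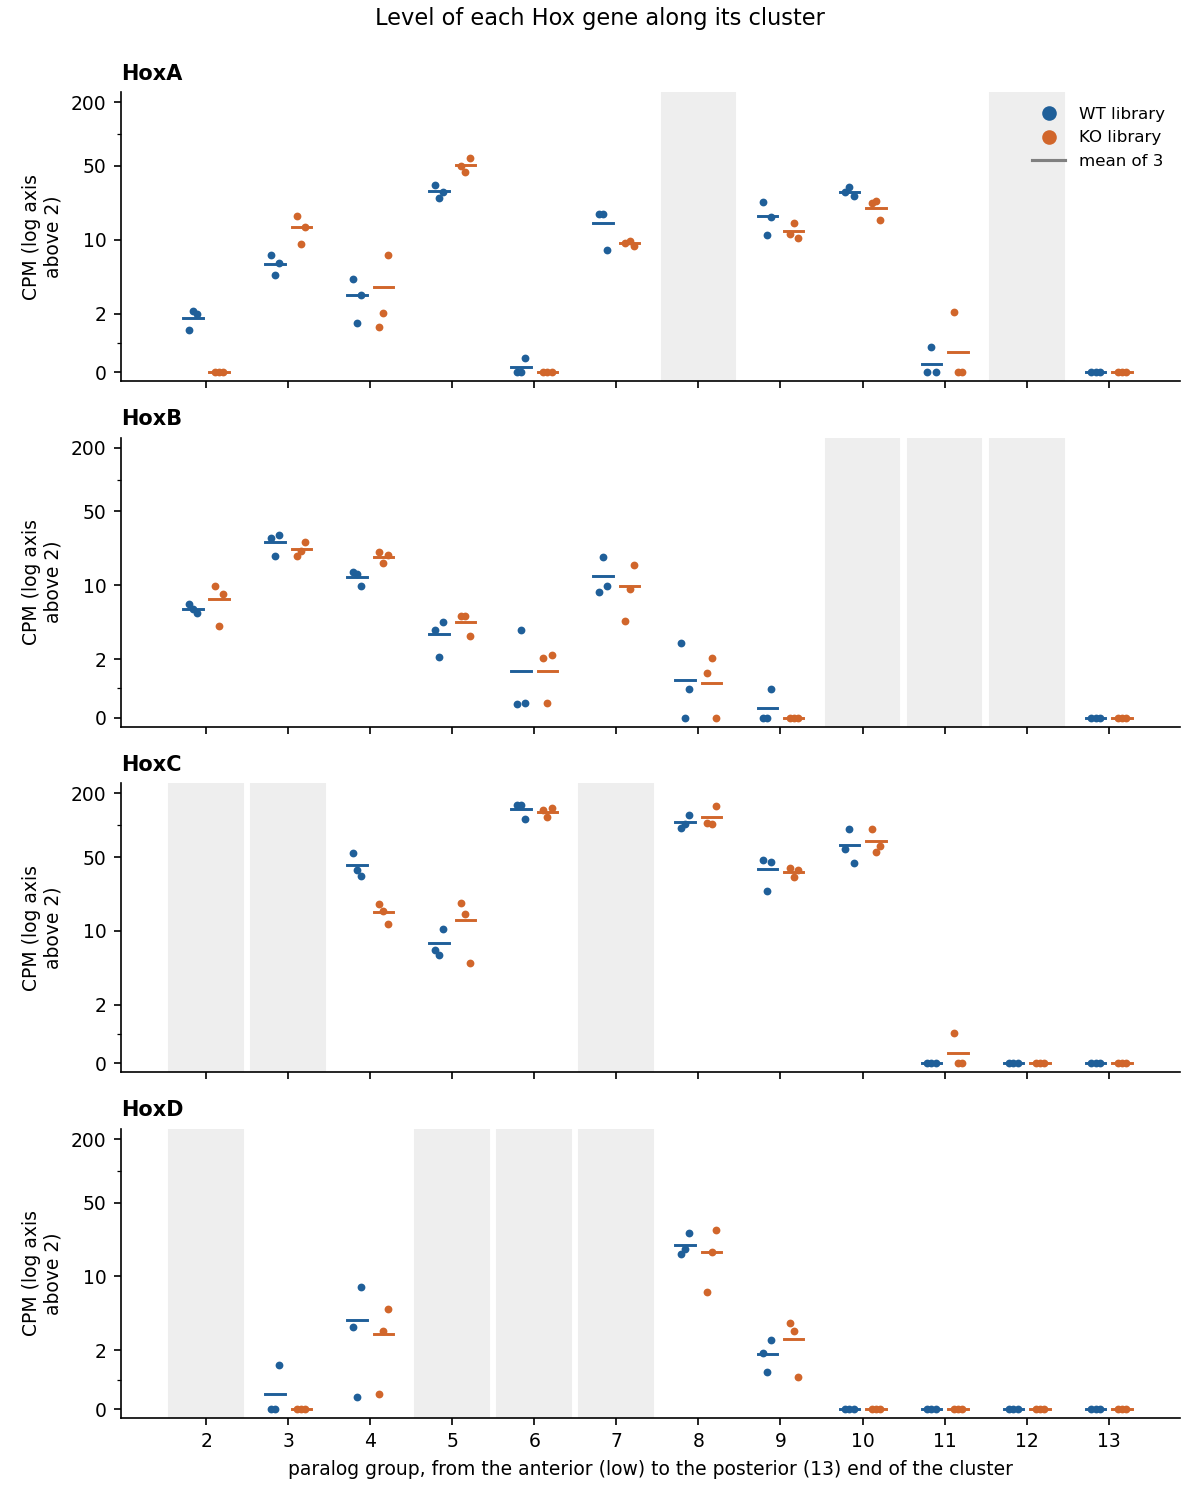
CPM of each Hox gene in each library (points; bars are means of 3), by paralog group from 2 (anterior) to 13 (posterior), with an axis that is linear up to 2 and logarithmic above. Grey columns mark numbers that a cluster lacks; the points of HoxC stay high from Hoxc6 to Hoxc10, and groups 12 and 13 lie at 0 in every cluster.

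HoxC held most Hox reads. Its share was 68.0 ± 2.14% of all Hox counts in WT against 66.3 ± 2.07% in KO (SD, n = 3 each), and it lay between 65.0% and 70.4% in each library. HoxA took 15.8% to 19.5%, HoxB 10.3% to 11.6% and HoxD 1.89% to 6.73%. Longer genes give more reads, so genes were set against each other only as CPM per kilobase of their GRCm38.p6 genomic span, introns included. That measure understates Hoxa3, Hoxb3, Hoxd3, Hoxc4 and Hoxc6, whose spans of 13.7 to 44.0 kb hold long introns.

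In HoxC, Hoxc8, a gene known in white fat precursors and as a repressor of brown fat formation, stood highest per kilobase, at 28.6 ± 4.09 CPM per kb in WT (SD, n = 3). Hoxc10, known as a gene of subcutaneous fat, followed at 12.8 ± 4.87 CPM per kb and Hoxc6 at 10.4 ± 1.74 CPM per kb. By CPM alone Hoxc6 gave the most reads of the cluster in WT, at 142 ± 23.8, against 107 ± 15.3 for Hoxc8 and 65.3 ± 24.9 for Hoxc10. By WT mean, the places of Hoxc8 and Hoxc10 above Hoxc6 thus rest on the spans of these genes, of 3.74, 5.10 and 13.7 kb. Per kilobase, Hoxc8 lay above Hoxc10 and Hoxc10 above Hoxc6 in 6 of 6 libraries, though the ranges of Hoxc10 and Hoxc6 over libraries overlapped. Hoxc9, used as a marker of white fat, came next at 5.19 ± 1.73 CPM per kb, below Hoxc6 in 6 of 6 libraries. Per kilobase of their spans (18.8 and 3.42 kb), Hoxc4 and Hoxc5 were not apart in WT, at 2.25 ± 0.613 and 2.24 ± 0.705 CPM per kb. By CPM alone they stood at 42.2 ± 11.5 and 7.67 ± 2.41 in WT. Beyond Hoxc10 the cluster fell to 2 counts of Hoxc11 in KO library 1, with Hoxc12 and Hoxc13 at 0.

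In HoxA, Hoxa5, a patterning gene that also marks adult fat depots, led in 6 of 6 libraries, at 10.2 ± 1.48 CPM per kb in WT (SD, n = 3). Hoxa7, Hoxa9 and Hoxa10 followed at 4.84 ± 1.87, 3.92 ± 1.38 and 2.96 ± 0.285 CPM per kb in WT, and neighbours in this order overlapped over libraries. Hoxa6, which lies between Hoxa5 and Hoxa7, had 1 count in WT library 3 and none elsewhere, so the expressed stretch of HoxA was not continuous in these counts. The genomic span of Hoxa3 covers Hoxa4, Hoxa5 and Hoxa6 in GRCm38.p6, and the labels do not say how reads shared by overlapping genes were assigned.

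In HoxB, Hoxb3 gave the most reads, at 25.6 ± 5.76 CPM in WT (SD, n = 3). The highest mean per kilobase was that of Hoxb4, known for its role in blood stem cells, at 3.55 ± 0.535 CPM per kb in WT (SD, n = 3), with Hoxb7 at 2.71 ± 1.20 and Hoxb2, a hindbrain gene of the embryo, at 2.52 ± 0.252 CPM per kb. Neighbours in this order overlapped over libraries. Hoxb5 and Hoxb3 lay lower, at 1.33 ± 0.464 and 0.628 ± 0.141 CPM per kb, and Hoxb6 (20 counts in all) and Hoxb8 (15) were close to the limit of detection. Hoxb9 had 2 counts, and Hoxb1 and Hoxb13 had none. The span of Hoxb3 covers Hoxb4.

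HoxD had 1 tested member. Hoxd8 stood at 6.04 ± 1.53 CPM per kb in WT (SD, n = 3), above Hoxd9 in 6 of 6 libraries. Hoxd9 had 4, 3 and 5 counts in WT against 7, 6 and 2 in KO, and Hoxd4 had 7, 1 and 16 against 1, 6 and 9. Hoxd3 had 3 counts, all in WT library 3. Hoxd1, Hoxd10, Hoxd11, Hoxd12 and Hoxd13 were at 0 in every library.

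The comparison of KO with WT asked whether this profile changes when Tet3 is targeted. Of the 16 tested members, 1 fell in KO, 0 rose and 15 did not pass (edgeR's quasi-likelihood test, Benjamini-Hochberg adjusted p of 0.05 over 9943 genes). Over all tested genes 3.59% passed, 1.77% lower and 1.82% higher in KO, beside 1 of 16 members (6.25%). The same member passed by DESeq2, which gave 10 members an adjusted p (5.07% of all genes passed), and by limma-voom (3.37% passed), and no member rose by either tool. At an unadjusted p under 0.05 by edgeR, 2 members were higher. Counting both directions, 3 members were under that p, and 15.5% of all tested genes were. The median log2 fold change was -0.07 over the members and 0.00 over all tested genes.

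Hoxc4, the most anterior gene of the HoxC cluster, fell in KO. Its counts were 116, 90 and 67 in WT libraries 1 to 3 against 35, 30 and 21 in KO libraries 1 to 3. Every KO library lay below every WT library. The annotated gene Gm30528, whose span overlaps that of Hoxc4, had 4, 2 and 15 counts in WT against 1, 0 and 6 in KO, and how its reads and those of Hoxc4 were told apart is unstated. The level was 42.2 ± 11.5 CPM in WT against 14.95 ± 3.22 CPM in KO (SD, n = 3 each), or 2.81-fold lower by the fit. The log2 fold change was -1.49 ± 0.32 (SE; 95% interval -2.14 to -0.83, approximate) and the adjusted p was 0.00448 by edgeR.

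The Hoxc4 call was also made by DESeq2 (adjusted p = 0.00298) and by limma-voom (adjusted p = 0.0132). It was lost without WT library 1, the highest of the 6 (log2 fold change -1.26, adjusted p = 0.0781), and without KO library 3, the lowest (-1.34, adjusted p = 0.0626). In the other 4 fits that left out 1 library the adjusted p lay between 0.00548 and 0.0123. Markers of pericytes and smooth muscle, 6 genes, summed to 44.2 to 70.8 CPM in the WT libraries and 16.9 to 29.7 CPM in the KO libraries, and most of that sum was Notch3. The other 5 genes summed to 7.23 ± 3.02 CPM in WT against 8.82 ± 2.85 CPM in KO (SD, n = 3 each). Of that list 1 gene was tested, Notch3, and it fell by 1.56 on the log2 scale (edgeR adjusted p = 0.00243). The part of these cells, and that of the lower Pdgfra level, in the fall of Hoxc4 was not tested.

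**Figure D2:**
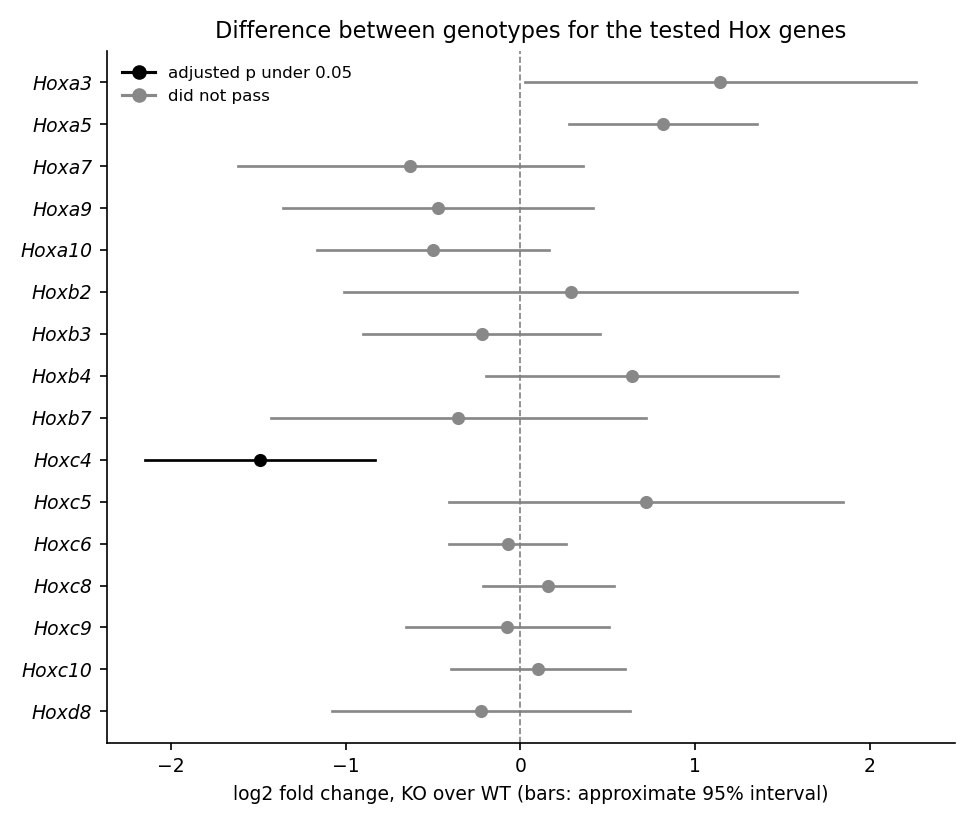
Log2 fold change of KO over WT for the 16 tested Hox genes, with approximate 95% intervals. Hoxc4 (black) passed at -1.49, and the intervals of Hoxc6, Hoxc8, Hoxc9 and Hoxc10 all end within 0.66 of 0.

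The other genes of the HoxC cluster did not pass. Hoxc5, the neighbour of Hoxc4, had 14, 14 and 21 counts in WT against 36, 28 and 9 in KO, with the lowest and the highest library both in KO (log2 fold change 0.72 ± 0.55, edgeR adjusted p = 0.593). Hoxc6 had 327, 367 and 230 counts in WT against 269, 236 and 265 in KO. Hoxc8 had 199, 242 and 250 in WT against 203, 200 and 277 in KO. For both genes the libraries of the genotypes overlapped. With the most counts of all members, they had the narrowest intervals. The approximate 95% interval was -0.41 to 0.26 for Hoxc6 and -0.21 to 0.53 for Hoxc8 on the log2 scale. Hoxc9 had 98, 56 and 91 counts in WT against 76, 63 and 69 in KO (interval -0.66 to 0.50). Hoxc10 had 124, 219 and 89 counts in WT against 178, 110 and 115 in KO (interval -0.40 to 0.60). Differences of more than 0.66 on the log2 scale lie outside the intervals of all 4 genes.

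In HoxA, Hoxa5 was higher in every KO library than in any WT library and did not pass over all genes. Its counts were 70, 59 and 57 in WT against 97, 86 and 107 in KO, or 28.9 ± 4.18 and 50.9 ± 7.51 CPM (SD, n = 3 each). The log2 fold change was 0.82 ± 0.26 (SE), with an interval of 0.28 to 1.35, an unadjusted p of 0.00406 and an adjusted p of 0.0835 by edgeR. Hoxa3, known for the pharyngeal arches of the embryo, had 15, 11 and 12 counts in WT against 33, 18 and 24 in KO. Its log2 fold change was 1.14 ± 0.55 (SE), with an unadjusted p of 0.0456 and an adjusted p of 0.311 by edgeR. The span of Hoxa3 covers Hoxa5, so the counts of both may not be independent. Hotairm1, a noncoding gene of HoxA, had 4, 5 and 3 counts in WT against 15, 9 and 3 in KO and was not tested.

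Hoxa7, Hoxa9 and Hoxa10 had log2 fold changes below 0, and none of them passed. Hoxa10, known in limb and uterus, had 60, 74 and 52 counts in WT against 43, 45 and 28 in KO, and its groups did not overlap in CPM (28.6 ± 2.76 against 20.2 ± 4.15, SD, n = 3). Its log2 fold change of -0.50 ± 0.32 did not pass (edgeR adjusted p = 0.505). Hoxa7 had 37, 41 and 16 counts in WT against 18, 19 and 16 in KO (edgeR adjusted p = 0.593). Hoxa9, known in blood progenitors, had 48, 26 and 33 counts in WT against 22, 28 and 19 in KO (edgeR adjusted p = 0.675). Summed by position, groups 4 to 8 of HoxA came to 55.2, 44.0 and 39.7 CPM in the WT libraries against 60.6, 55.7 and 74.8 CPM in KO. Without Hoxa5 that sum was 17.4 ± 5.41 CPM in WT against 12.8 ± 2.75 CPM in KO (SD, n = 3 each). Groups 9 to 13 of HoxA came to 51.4, 43.2 and 42.2 CPM in WT against 35.4, 37.3 and 25.9 CPM in KO. These were the 2 sums, of the 11 by cluster and position with any counts, in which the genotypes did not overlap (18.2%, beside 20.4% of all tested genes), and sums over members were not tested.

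**Figure D3:**
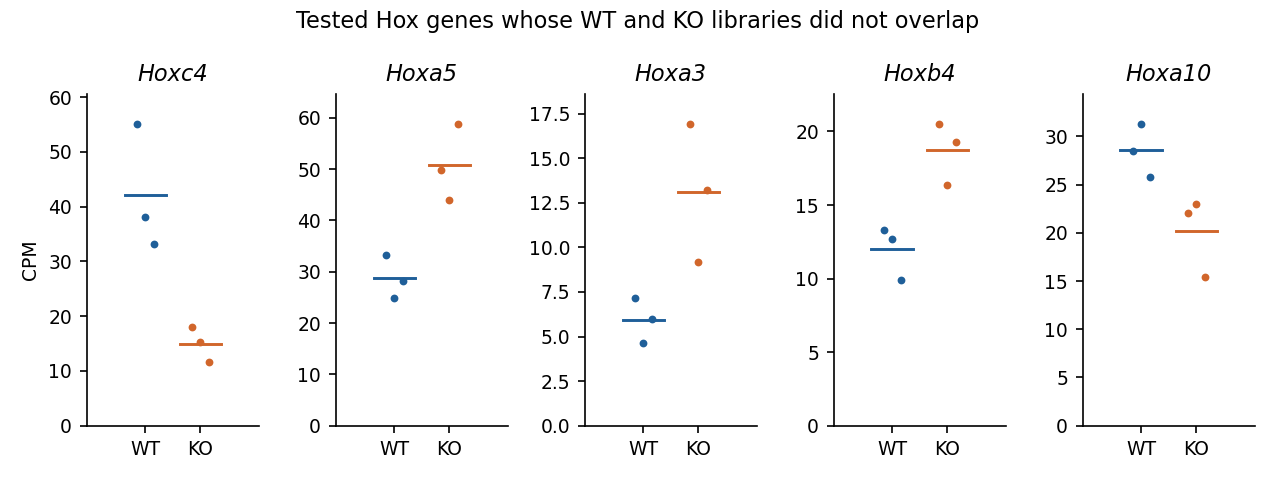
CPM per library (points) and means of 3 (bars) for the 5 tested Hox genes whose WT and KO libraries did not overlap, each on its own axis from 0. Hoxc4 and Hoxa10 are lower in KO and Hoxa5, Hoxa3 and Hoxb4 higher; Hoxc4 is the member that passed the test.

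Of the 16 tested members, 5 had WT and KO libraries that did not overlap in CPM (31.2%), beside 20.4% of all tested genes. Besides Hoxc4, Hoxa5, Hoxa3 and Hoxa10 this was Hoxb4, with 28, 30 and 20 counts in WT against 40, 32 and 35 in KO (log2 fold change 0.64 ± 0.41, edgeR adjusted p = 0.496). The remaining HoxB and HoxD members overlapped. Hoxb3 had 59, 45 and 60 counts in WT against 37, 41 and 47 in KO (edgeR adjusted p = 0.824). Hoxb7 varied more within genotypes, with 18, 44 and 20 in WT against 9, 18 and 28 in KO. Hoxb2 had 14, 14 and 11 counts in WT against 19, 8 and 15 in KO. Hoxd8 had 34, 43 and 52 counts in WT against 14, 33 and 50 in KO (edgeR adjusted p = 0.864), and its lowest library was KO library 1.

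The 13 members with counts that were not tested held between 1 and 48 counts in all. Hoxa2, a selector gene of the hindbrain and the branchial arches in the embryo and singled out after its values were seen, had 3, 5 and 4 counts in WT against 0 in each KO library. Its pooled WT level of 1.85 CPM was 3.53-fold above the limit of 3 counts over the KO group (0.524 CPM). That ratio leaves out the counting error of the 12 WT counts, so it is not a lower bound on the difference. In a fit without the filter on low counts its unadjusted p was 0.0383 and its adjusted p 0.377 by edgeR. Hoxb5 had 5 to 10 counts per library and Hoxa4 had 3 to 13. Hoxa6, Hoxa11, Hoxb6, Hoxb8, Hoxb9, Hoxc11, Hoxd3, Hoxd4 and Hoxd9 were also among them, and in that fit none of the 13 passed.

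**Figure D4:**
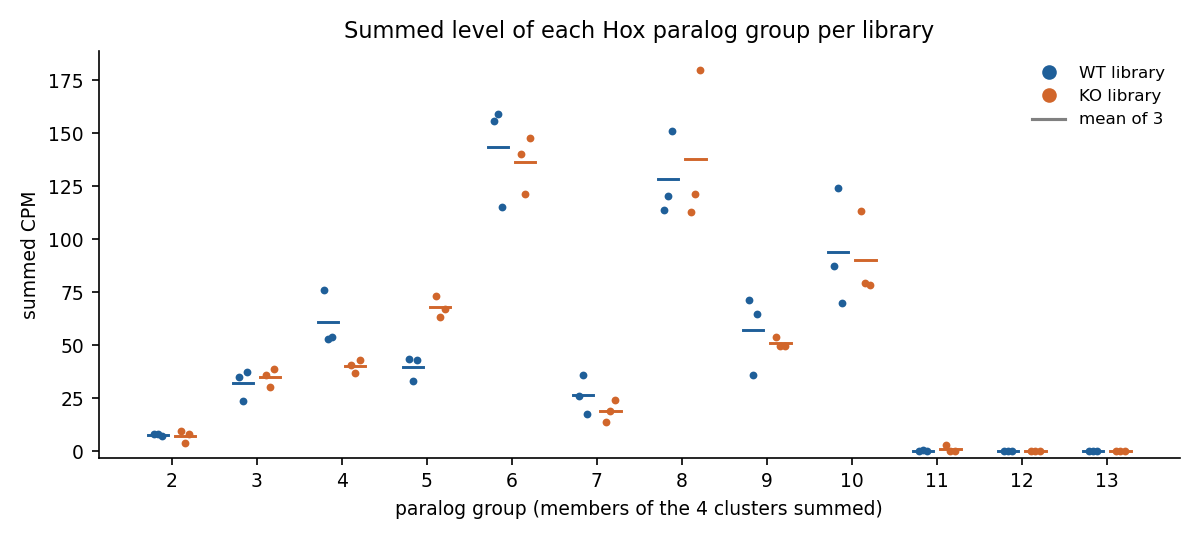
Summed CPM of each Hox paralog group from 2 to 13, over the clusters that hold it, in each library (points; bars are means of 3). Group 4 lies lower in all KO libraries (36.8 to 42.9 against 52.9 to 76.1) and group 5 higher (63.4 to 73.4 against 33.0 to 43.7), while the other groups overlap or are at 0.

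Paralogs share most of their homeodomain, so levels were also summed by number. Group 4, which holds Hoxa4, Hoxb4, Hoxc4 and Hoxd4, summed to 61.0 ± 13.04 CPM in WT against 40.1 ± 3.07 CPM in KO (SD, n = 3 each). Hoxc4 gave 42.2 CPM of that sum in WT and 14.95 in KO, and Hoxb4 gave 18.7 CPM of it in KO. Group 5, which holds Hoxa5, Hoxb5 and Hoxc5, summed to 40.0 ± 6.04 CPM in WT against 68.0 ± 5.05 CPM in KO. Hoxa5 gave 28.9 and 50.9 CPM of these, and without it the groups overlapped (11.1 ± 3.47 against 17.1 ± 7.94 CPM). These were the 2 of 11 groups with counts whose sums did not overlap (18.2%, beside 20.4% of all tested genes). Group 8 summed to 128 ± 19.8 and 138 ± 36.5 CPM and group 10 to 93.8 ± 27.6 and 90.4 ± 19.9 CPM. No test was made over these sums.

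HOX proteins bind DNA with TALE partners of the PBX, MEIS and PKNOX families. Of 10 tested TALE genes 0 passed by edgeR, 0 of the 8 adjusted by DESeq2 and 0 by limma-voom, and 0 were under an unadjusted p of 0.05 by edgeR. The smallest p-values were those of Pknox2 (18.0 ± 4.73 CPM in WT against 11.5 ± 2.84 in KO, SD, n = 3; edgeR adjusted p = 0.526) and Tgif2 (3.40 ± 0.559 and 6.96 ± 1.35 CPM; edgeR adjusted p = 0.527). Polycomb complexes keep Hox genes silent outside their domain. Of 22 tested Polycomb genes 0 passed by edgeR or limma-voom, and 0 of the 18 that DESeq2 adjusted. By edgeR 4 of the 22 were under an unadjusted p of 0.05, beside 15.5% of all tested genes. Jarid2, a partner of the PRC2 complex, stood at 70.3 ± 18.0 CPM in WT against 101 ± 13.3 CPM in KO (SD, n = 3; edgeR adjusted p = 0.185). Pcgf2, a subunit of PRC1, stood at 34.6 ± 5.74 and 20.3 ± 5.19 CPM (edgeR adjusted p = 0.213).

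Trithorax complexes keep Hox genes active, and of 14 tested genes of Trithorax, H3K27 demethylases and CTCF 1 fell, 0 rose and 13 did not pass, beside 3.59% of all tested genes that passed. Wdr5, a core subunit of the KMT2 histone H3K4 methyltransferases, had 98, 157 and 114 counts in WT against 38, 62 and 34 in KO, and the groups did not overlap. Its level fell from 56.6 ± 9.93 to 23.3 ± 7.28 CPM (SD, n = 3 each). The log2 fold change was -1.28 ± 0.28 with an adjusted p of 0.00513 by edgeR. The call of Wdr5 was lost without KO library 3 (adjusted p = 0.0745 by edgeR). Kdm6b, an H3K27 demethylase, did not pass (25.1 ± 7.63 and 42.3 ± 8.90 CPM; edgeR adjusted p = 0.187).

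Retinoic acid is an inducer of anterior Hox genes. Of the 7 tested genes of its pathway and of other inputs to Hox genes, 1 rose, 1 fell and 5 did not pass by edgeR. Over all tested genes 3.59% passed by edgeR. By DESeq2 2 of the 5 adjusted passed (5.07% of all genes), and by limma-voom 2 passed (3.37%). Aldh1a1, an enzyme that makes retinoic acid, rose from 130 ± 7.18 to 198 ± 23.7 CPM (SD, n = 3 each; log2 fold change 0.61 ± 0.15, edgeR adjusted p = 0.0165). It no longer passed without WT library 1, 2 or 3 or KO library 1 (edgeR adjusted p up to 0.104). Crabp1, which binds retinoic acid in the cytoplasm and was singled out after its values were seen, had 0, 0 and 1 counts in WT against 14, 15 and 7 in KO. It did not reach the filter on low counts. The ratio of its summed counts was 40.8, with a 95% counting interval of 6.86 to 1654, and without the filter edgeR gave an adjusted p of 0.0226. Of the fits that left out 1 library, 4 tested Crabp1, and it passed without WT library 3 (edgeR adjusted p = 0.0370) but not in the fits without KO library 3 or either of the other WT libraries (0.0657 to 0.104). Cdx1, Cdx2 and Cdx4, which act on Hox genes in the early embryo, were at 0 in every library. The median log2 fold change of the tested genes was -0.07 for the TALE list, 0.02 for Polycomb, 0.03 for Trithorax, H3K27 demethylases and CTCF and 0.27 for the retinoic acid list, beside 0.00 over all tested genes.

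Other regional transcription factors of mesenchyme had 0 of 21 tested members passing by edgeR or limma-voom and 0 of the 17 that DESeq2 adjusted. By edgeR 4 of the 21 were under an unadjusted p of 0.05, beside 15.5% of all tested genes. The median log2 fold change of the tested members was 0.05. Meox2, a homeobox gene of the somites, stood at 45.6 ± 5.13 CPM in WT against 24.9 ± 3.75 CPM in KO (SD, n = 3; edgeR adjusted p = 0.0771), and Tbx18 at 62.8 ± 2.71 and 39.4 ± 3.77 CPM (edgeR adjusted p = 0.112). Of the genes that flank the Hox clusters, 0 of 11 tested genes passed by edgeR or limma-voom and 0 of 9 by DESeq2. By edgeR 2 of the 11 were under an unadjusted p of 0.05, beside the same 15.5% of all tested genes. The smallest p-values were those of Hnrnpa1, near HoxC, at 32.3 ± 11.3 and 16.8 ± 3.31 CPM (SD, n = 3; edgeR adjusted p = 0.135), and of Hibadh, near HoxA, at 49.99 ± 7.01 and 32.7 ± 6.13 CPM (edgeR adjusted p = 0.231). Of the 16 listed noncoding genes of the clusters in the table, 11 were at 0 in every library, the 6 microRNA genes among them, and 0 had enough counts to be tested. The libraries were selected for poly(A), so a microRNA gene at 0 counts says nothing of the mature microRNA. Hotair, a noncoding gene of HoxC, had 0, 0 and 2 counts in WT against 3, 2 and 3 in KO. In the TET family 0 of 3 genes passed by edgeR or limma-voom, and 0 of the 2 that DESeq2 adjusted. The smallest p was that of Tet1, with 11, 14 and 26 counts in WT against 45, 43 and 23 in KO (edgeR adjusted p = 0.154, unadjusted p = 0.0120).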

How the data were processed

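The authors deposited unnormalised read counts for each gene symbol. For RNA and DNA together, the submitters' processing notes name HTSeq 0.9.1, HISAT2 2.2.1, DESeq2 1.36.0, Bismark 0.23.0 and Trim Galore 0.6.6. Of builds they name mm10, mm39 and GRCm39, with no role for each. RNA was selected by poly(A), per the labels' protocols. The strand setting of the counting is unstated in the labels, and reads of a gene and of an antisense partner therefore cannot be separated. The methylation table was not used, because the build of its coordinates is not stated.

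The test of these counts was that of edgeR 4.0.16, run in R 4.3.3 (filterByExpr with a minimum count of 10 and a minimum total of 15, TMM factors, quasi-likelihood test of KO against WT, Benjamini-Hochberg adjustment over 9943 genes). Standard errors were derived from the F statistic, and the 95% intervals from them are approximate. CPM are counts scaled by the effective library size. The script was tested on simulated data. Alternatives were DESeq2 1.42.0, limma-voom (limma 3.58.1), other factors and filters, a replicate block and leaving out each library. Within genotypes, replicate libraries differed by a chi-square of 4.05 to 7.13 per degree of freedom, so none were merged.

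The members, the 8 gene lists and the 11 marker lists were chosen with earlier results of these data known. Counts in every library were given for Hox genes with a p under 0.05, the 3 highest per kilobase in each cluster and the tested genes at the ends of each cluster. The other tested members were added to these. From each list came the members that passed or otherwise the 2 smallest p-values. Gene spans, neighbours and promoter windows are from RefSeq (GRCm38.p6), matched by symbol for all 39 genes, and 22 had a window. Values of some genes of these lists are not reported here.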

Additional observations from a re-analysis of the deposited data

How the results depend on the processing

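Hoxc4 was called in every fit that kept all 6 libraries (adjusted p 0.000863 to 0.0132 over DESeq2, limma-voom and edgeR's alternatives), and in 4 of the 6 fits that left out 1 library. The number of members called lower was 0 or 1 in those 6 fits, and that called higher was 0 in every fit. In those 6 fits, calls over all genes ranged from 158 (without KO library 3) to 370 (without KO library 2) and were 203 without WT library 1 and 226 without WT library 2, against 357. With all libraries kept they were 456 with no filter and 335 to 367 under the other tools, factors and filters. Calls over the gene lists ranged from 1 (without WT library 2 or KO library 3) to 3 in those 6 fits, and were 4 with no filter or a filter at 1 CPM. Fits without 1 library took the log2 fold change across 0 for Hoxb7 (-0.84 to 0.068), Hoxc8 (-0.051 to 0.27), Hoxc9 (-0.34 to 0.079), Hoxc10 (-0.13 to 0.44) and Hoxd8 (-0.73 to 0.15), genes that did not pass. By limma-voom Hoxc9 stood at 0.0032. The cause was not tested. The median over the members stayed between -0.12 and 0.03.

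The replicate numbers are not stated to mark pairs, and no pairing by number was seen in the counts. Deviations of same-numbered libraries from their genotype means correlated at 0.02, 0.02 and 0.00 across genes, and not every library correlated best with its own number. A fit with the replicate block called 501 genes, and Hoxc4 passed in it (log2 fold change -1.48, adjusted p = 0.00103 by edgeR). Depth limits the low members. By counting error alone, a gene at 0 may lie at up to 1.65 CPM in a single library. For a gene at 0 over the 3 KO libraries together that limit was 0.524 CPM. The median width of the intervals of the tested members was 1.51 on the log2 scale.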
